A study of Mus musculus with 6 samples.

Results

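The genes described here are 10 members of the Wnt pathway measured in heads of E9.0 mouse embryos: the ligand genes *Wnt1*, *Wnt3a*, *Wnt4* and *Wnt5a*, and *Axin2*, *Lef1*, *Sp5*, *Nkd1*, *Rnf43* and *Dkk1*, which are canonical targets of the pathway. They were taken by symbol from a table of 24421 genes, each symbol matched 1 row, and all 10 passed the filter on low counts that left 15584 genes to test. The experiment compared 3 libraries labelled WT (SnrpB +/+) with 3 libraries labelled mutant (SnrpB+/-). Each library was made from the pooled heads of 2 somite-matched embryos of 1 genotype from different litters, with C57BL/6 and CD1 in the labels and a mixture of CD1 with C57BL/6J in the study's methods. In the mutants (*Snrpb* ncc+/-), a *Wnt1-Cre2* transgene deletes exons 2 and 3 of 1 *loxP*-flanked copy of *Snrpb*, a core spliceosome gene, in neural tube and neural crest, and the rest of the head keeps both copies. Control littermates in the study included carriers of the transgene, and the sources used here do not state whether the WT pools carried it or the *loxP* allele. The transgene and the loss of 1 copy of *Snrpb* therefore cannot be told apart in this comparison.

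Wnt proteins are secreted signals that bind Frizzled receptors. In the canonical branch the Lrp5 and Lrp6 co-receptors join them, the cytoplasmic destruction complex of Axin, Apc and Gsk3 is held off, and β-catenin accumulates and activates target genes together with TCF/LEF factors in the nucleus. In the embryonic head, *Wnt1* is expressed at the midbrain-hindbrain boundary and along the dorsal midline of the neural tube, where neural crest cells arise, which is why its regulatory sequences are used to drive Cre there. An earlier *Wnt1-Cre* line is known for ectopic *Wnt1* in the midbrain, and *Wnt1-Cre2* was made to avoid it. The question put to these data was whether *Wnt1*, or the targets that read out canonical signaling, stood at another level in mutant than in WT heads. The mutants carry the transgene, and whether the WT pools did is not known here.

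All values come from reads counted per gene, with between 36378803 and 58946111 counted reads in the WT libraries and between 42398206 and 74909774 in the mutant libraries. Levels are in CPM, counts scaled to the size of their library, with TMM factors that even out differences in composition between libraries. *Snrpb*, the targeted gene, was at 429.9, 438.2 and 414.2 CPM in WT and at 436.5, 412.4 and 430.3 CPM in mutants. Its log2 fold change was -0.004 (SE 0.039, 95% interval -0.09 to 0.09, edgeR adjusted *P* = 0.990), so the reads counted for the whole gene in the whole head did not separate the genotypes that the labels give, and WT and mutant below are the names in the labels. WT replicate 1 stood apart from the other libraries. It held the highest value of 24.7% of all tested genes and the lowest of 24.6%. Its summed level of 7 visceral endoderm genes was 31.8 CPM against 6.86 to 8.76 CPM in the other 5 libraries, with *Afp* at 5.55 CPM against 0.0903 to 0.710 CPM. Its sum of 7 cardiac muscle genes was 13.5 CPM against 37.4 to 137.4 CPM, that of 6 surface ectoderm genes 278 CPM against 374 to 383 CPM, and that of 6 pan-neural genes 839.6 CPM against 696 to 748 CPM. Where leaving it out moved an estimate by over 1.5 times or its sign, or took an unadjusted *P* across 0.05, the value without it is given too.

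None of the 10 genes passed an adjusted *P* of 0.05 in edgeR's quasi-likelihood test of mutant against WT, and none passed in DESeq2. Over all genes tested, edgeR called 1 gene (0.00642%) and DESeq2 called 84 of 12908 genes (0.651%). A single member, *Wnt4*, had an unadjusted *P* under 0.05, which 8.43% of all tested genes had, and it was lower in mutants. The 3 mutant libraries lay wholly on one side of the 3 WT libraries for 3 of the 10 genes, against 15.2% of all tested genes: *Wnt4* and *Lef1* were lower in mutants, as were 6.92% of all genes, and *Rnf43* was higher, as were 8.32%. The estimated log2 fold change was below 0 for 8 members and above 0 for *Wnt1* and *Rnf43*, with a median of -0.107. Over all genes the median was 0.0004, with 50.2% of estimates above 0. Without WT replicate 1, 6 members were below 0 and the members' median was -0.029, beside -0.003 over all genes. In size, the members' estimates had a median of 0.136 (log2) beside 0.0759 over all genes, both with WT replicate 1 included.

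**Figure D1:**
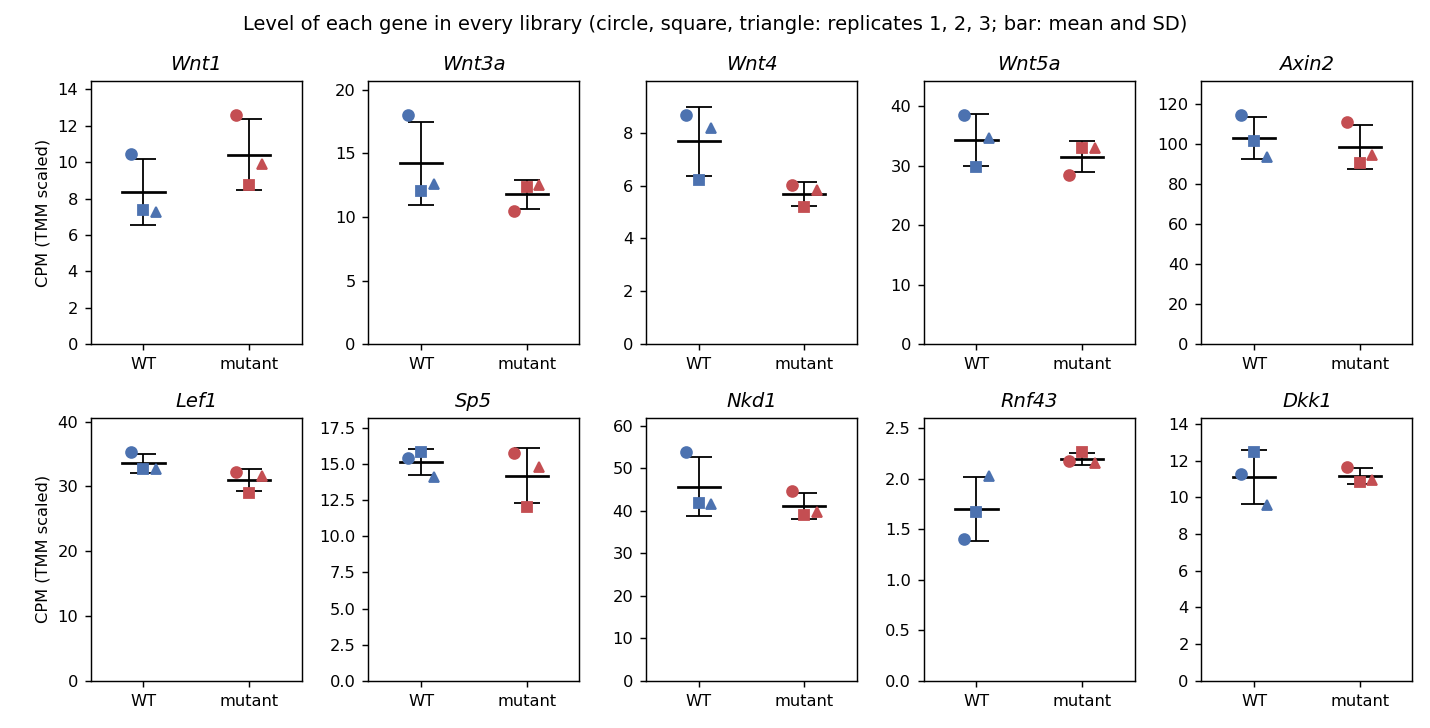
Level of each of the 10 genes in CPM (vertical axes, from 0, a scale of its own for each gene) in the 3 WT libraries (blue) and the 3 mutant libraries (red), with circle, square and triangle for replicates 1, 2 and 3, and bars for the mean and SD. *Wnt4* and *Lef1* have all red points under all blue points, *Rnf43* has all red points above, and the groups overlap for the other 7 genes.

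*Wnt1* (chr15:98789857-98793837, plus strand, mm10), the gene whose regulatory elements drive the transgene, was at 10.4, 7.36 and 7.24 CPM in WT replicates 1 to 3 and at 12.6, 8.75 and 9.93 CPM in mutant replicates 1 to 3. WT replicate 1 was above mutant replicates 2 and 3, so the groups overlapped. The WT mean was 8.35 ± 1.81 CPM and the mutant mean 10.4 ± 1.96 CPM (SD, n = 3 each). The log2 fold change was 0.32 (SE 0.18, edgeR adjusted *P* = 0.675), with a 95% interval of -7.0% to 67.0% for the change, and an exact permutation test over the 20 assignments of the libraries gave *P* = 0.3 (two-sided), where 0.1 is the smallest value that 3 against 3 libraries allow. Without WT replicate 1 the log2 fold change was 0.50 (SE 0.15, unadjusted *P* = 0.0123, edgeR adjusted *P* = 0.383), and without mutant replicate 1 it was 0.166. Gene-level counts do not show in which cells of the head *Wnt1* was transcribed, or from which copy.

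*Wnt3a* (chr11:59248033-59290752, minus strand), a canonical ligand of the dorsal midline, was at 18.0, 12.04 and 12.6 CPM in WT and at 10.4, 12.4 and 12.5 CPM in mutants. The WT mean was raised by replicate 1 alone, and the other 5 libraries lay between 10.4 and 12.6 CPM. The log2 fold change was -0.26 (SE 0.16, edgeR adjusted *P* = 0.688) with all libraries and -0.06 without WT replicate 1.

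*Wnt4* (chr4:137277489-137299726, plus strand), a ligand known for both canonical and other signaling depending on the tissue, was at 8.65, 6.20 and 8.19 CPM in WT and at 6.01, 5.17 and 5.84 CPM in mutants. Every mutant library was under every WT library, though mutant replicate 1 was close to WT replicate 2. The means were 7.68 ± 1.30 and 5.67 ± 0.445 CPM (SD, n = 3 each), and the log2 fold change was -0.43 (SE 0.14, 95% interval -40.5% to -7.8% for the change, unadjusted *P* = 0.0128). It did not pass after adjustment over all genes, either in edgeR (adjusted *P* = 0.449) or in DESeq2 (adjusted *P* = 0.244), and the exact permutation test gave its smallest value, *P* = 0.1. Without WT replicate 1 the log2 fold change was -0.34 (unadjusted *P* = 0.0409), and without mutant replicate 2, the lowest library, it was -0.37 (unadjusted *P* = 0.0531). With Y-linked expression added to the model, the log2 fold change was -0.24 with an unadjusted *P* of 0.257. The summed level of the 4 Y-linked genes *Ddx3y*, *Eif2s3y*, *Kdm5d* and *Uty* was 98.8, 120 and 62.8 CPM in WT and 173, 228.3 and 111 CPM in mutants. None of these 4 genes passed the adjusted test. *Xist*, the gene of X inactivation, was at 86.9, 69.8 and 154.6 CPM in WT and at 65.1, 0.368 and 98.9 CPM in mutants. Mutant replicate 2 was the lowest for *Wnt4* and for *Xist*, with the highest Y-linked sum. Other pairs ran the other way. Mutant replicate 3 had a lower Y-linked sum than WT replicate 2 and lower *Wnt4*. WT replicate 1 had a higher sum than WT replicate 3 and higher *Wnt4*. The part of the sex of the pooled embryos in the *Wnt4* difference was not tested beyond this model.

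*Wnt5a* (chr14:28504750-28527448, plus strand), the main ligand of β-catenin-independent signaling in facial and limb outgrowth, was at 38.5, 29.8 and 34.7 CPM in WT and at 28.5, 33.0 and 33.0 CPM in mutants. The lowest and the highest value came from different groups, with the rest interleaved. The log2 fold change was -0.12 (SE 0.099, edgeR adjusted *P* = 0.782) and -0.03 without WT replicate 1.

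**Figure D2:**
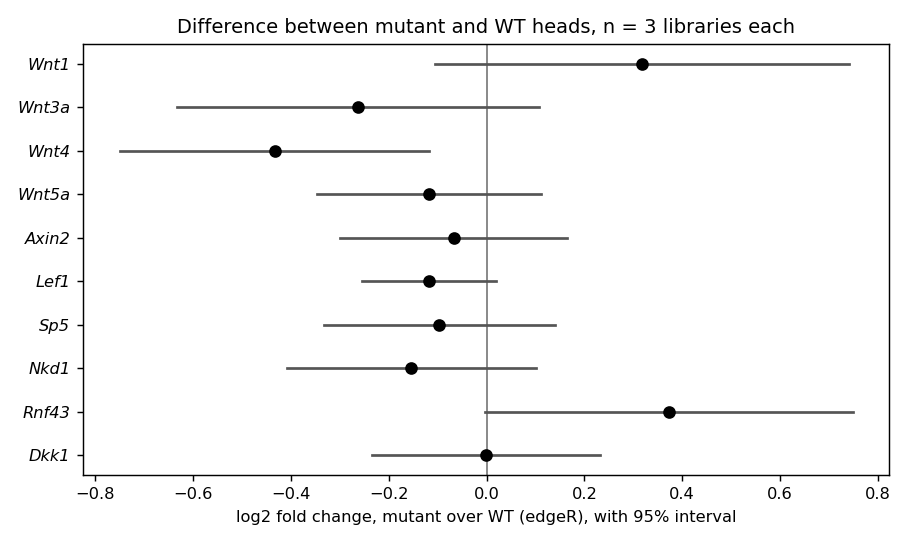
Estimated difference between mutant and WT heads for each of the 10 genes (points, log2 fold change from edgeR, horizontal axis) with its 95% interval (lines), n = 3 libraries in each group. Every interval but that of *Wnt4*, at -0.75 to -0.12, takes in 0, and the intervals of *Wnt1*, *Wnt3a*, *Wnt4* and *Rnf43* are the wide ones.

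*Axin2* (chr11:108920349-108950783, plus strand), a scaffold of the destruction complex that is induced by the signal it limits and is the usual readout of canonical signaling, was at 114.2, 101.5 and 93.6 CPM in WT and at 111.1, 90.2 and 94.2 CPM in mutants. In both groups replicate 1 was the highest, and the ranges of the groups were nearly the same. The means were 103.1 ± 10.4 and 98.5 ± 11.1 CPM (SD, n = 3 each), and the log2 fold change was -0.07 (SE 0.098, edgeR adjusted *P* = 0.884) and 0.01 without WT replicate 1. Its 95% interval ran from -18.7% to 12.1%, so a larger rise of *Axin2* over the whole head lies outside it. In bulk RNA, fewer cells of a kind and less RNA in each cannot be told apart, here as for all genes below, and a rise in a small group of cells would be diluted by the rest of the head.

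*Lef1* (chr3:131110471-131224356, plus strand), which encodes a TCF/LEF factor and is itself a target, was at 35.3, 32.6 and 32.7 CPM in WT and at 32.2, 29.0 and 31.7 CPM in mutants. All mutant libraries were under all WT libraries, with a gap between the groups smaller than the spread within either of them. The log2 fold change was -0.12 (SE 0.060, 95% interval -16.1% to 1.4%, edgeR adjusted *P* = 0.643). *Nkd1* (chr8:88521354-88594884, plus strand), which encodes a Dishevelled-binding inhibitor, was at 53.8, 41.7 and 41.6 CPM in WT and at 44.6, 38.9 and 39.7 CPM in mutants. WT replicate 1 stood above the other 5 libraries, and the log2 fold change was -0.15 (SE 0.109, 95% interval -24.6% to 7.2%, edgeR adjusted *P* = 0.735) with it and -0.03 without it.

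*Sp5* and *Dkk1* are the members with a word of the TCF/LEF site in the promoter windows searched, and these stretches are shown because the targets are read as outputs of TCF/LEF factors. The words were CTTTGAA and CTTTGAT, on both strands, in windows of 250 bases before to 50 bases after the start (RefSeq, GRCm38.p6). Each stretch is 5′ to 3′ on the strand of its gene, with the word in capitals.
*Sp5*, chr2:70474809-70474835, plus strand: gcaaggccccCTTTGATcaggaaaatc
*Dkk1*, chr19:30549597-30549623, minus strand: cctcccaaagCTTTGAAatcccatccc
The word began 104 bases before the RefSeq start of *Sp5* and 117 bases before that of *Dkk1*. For *Dkk1* the gene in Gencode M21 begins farther upstream, so the stretch lies within it there. A word was found for 2 of the 9 members with a promoter entry (22.2%), for 4 of 14 canonical target genes with an entry (28.6%) and for 9.9% of all 27025 genes with one. The match describes these letters alone. *Wnt5a* had no entry.

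*Sp5* (chr2:70474923-70477729, plus strand), which encodes a zinc finger repressor downstream of β-catenin, was at 15.4, 15.8 and 14.1 CPM in WT and at 15.7, 12.1 and 14.8 CPM in mutants. Mutant replicate 2 was low and the other 5 libraries lay close together. The log2 fold change was -0.10 (SE 0.104, 95% interval -20.6% to 10.1%, edgeR adjusted *P* = 0.841) and 0.01 without mutant replicate 2. *Dkk1* (chr19:30545863-30549665, minus strand), which encodes a secreted antagonist that binds Lrp5 and Lrp6 and is needed for head formation, was at 11.3, 12.5 and 9.57 CPM in WT and at 11.7, 10.9 and 10.9 CPM in mutants. The mutant values fell inside the range of the WT values. Both means were 11.1 CPM, and the 95% interval for the change was -14.9% to 17.5% (edgeR adjusted *P* = 1.00).

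*Rnf43* (chr11:87662722-87735539, plus strand), which encodes a ubiquitin ligase that removes Frizzled from the cell surface, was at 1.40, 1.67 and 2.03 CPM in WT and at 2.18, 2.26 and 2.15 CPM in mutants. All 3 mutant values exceeded the highest WT value, and they lay close together while the WT values were spread. The means were 1.70 ± 0.314 and 2.20 ± 0.0581 CPM (SD, n = 3 each), and the log2 fold change was 0.37 (SE 0.166, 95% interval -0.3% to 68.0%, unadjusted *P* = 0.0519, edgeR adjusted *P* = 0.593). It was the member with the lowest counts, between 51 and 172 reads a library. Apart from *Rnf43*, the upper ends of the intervals of the 6 targets were at 17.5% or less, each taken on its own.

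**Figure D3:**
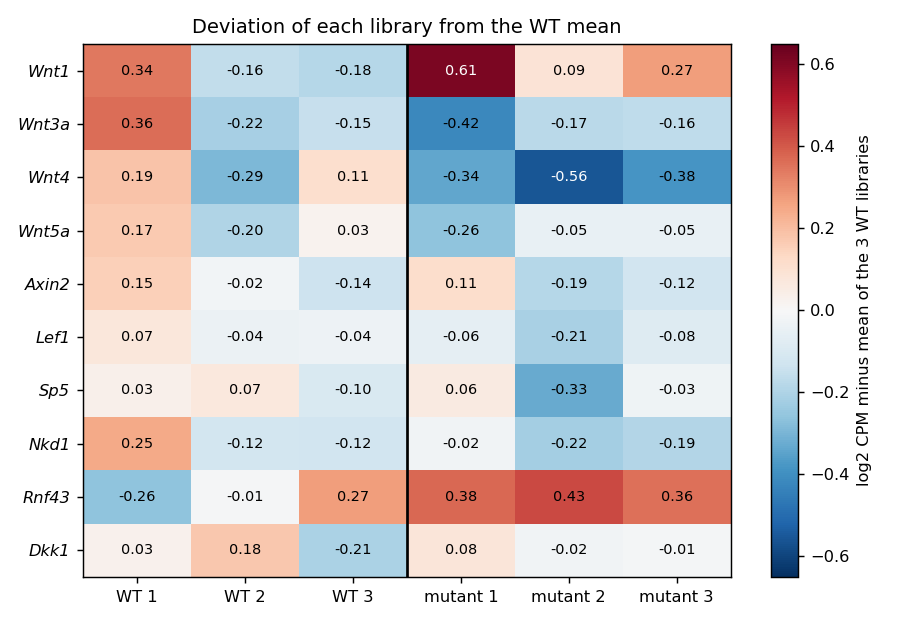
Deviation of each library (columns) from the mean of the 3 WT libraries for each gene (rows), in log2 CPM, with the value printed in each cell, red above and blue below 0. WT replicate 1 is above 0 for 9 of the 10 genes. The rows of *Wnt1* and *Rnf43* are red in all 3 mutant libraries, and those of *Wnt3a*, *Wnt4*, *Wnt5a*, *Lef1* and *Nkd1* are blue in them.

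Averaged over the 6 targets, the libraries deviated from the WT mean by 0.045, 0.009 and -0.055 (log2) in WT and by 0.091, -0.090 and -0.014 in mutants. Mutant replicate 1, the library with the highest *Wnt1*, also had the highest mean of the targets, and mutant replicate 2 had the lowest. The first rank leaned on *Rnf43*, the member with the lowest counts, at 0.375 in mutant replicate 1 and -0.262 in WT replicate 1. The other targets lay between -0.060 and 0.113 in mutant replicate 1 and between 0.029 and 0.246 in WT replicate 1. The groups overlapped, with the highest and the lowest library both labelled mutant. The 4 ligand genes gave 0.267, -0.217 and -0.050 in WT and -0.101, -0.172 and -0.081 in mutants, and here WT replicate 1 was the highest library. Across the 6 libraries, the 3 genes of the lists used here whose log2 CPM was most like that of *Wnt1* were *Znrf3* (Pearson's r = 0.942), *Pygo2* (0.886) and *Apom* (0.865), out of 169 genes. For *Axin2* they were *Myc* (0.984), *Sp8* (0.948) and *Ccnd1* (0.924), which are listed as canonical targets. These are descriptions over 6 libraries that share WT replicate 1 as an outlying point.

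Per kilobase of exon, which allows levels to be set side by side between genes, *Axin2* had the highest WT level of the members at 18.7 ± 1.89 CPM per kb (SD, n = 3), followed by *Nkd1* at 10.02 ± 1.54 and *Sp5* at 7.20 ± 0.428. *Wnt3a* (5.15 ± 1.19), *Dkk1* (4.57 ± 0.600), *Wnt5a* (4.39 ± 0.557), *Lef1* (3.82 ± 0.173) and *Wnt1* (3.51 ± 0.762) came next, and between neighbours in this order the ranges of mean ± SD overlapped. *Wnt4* was at 1.83 ± 0.311 and *Rnf43* at 0.259 ± 0.0479 CPM per kb. Among all 19 Wnt ligand genes of the mouse, all of which were tested, the highest levels in WT heads were those of *Wnt5b* (9.37 ± 1.69) and *Wnt6* (7.996 ± 0.572), and the lowest was that of *Wnt8a* (0.0780 ± 0.0150 CPM per kb). Antisense genes overlapped exons of *Wnt5a* (358 bases), *Axin2* (209 bases) and *Lef1* (1208 bases) in the annotation, and whether the counting used strand is not given in the sources used here.

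**Figure D4:**
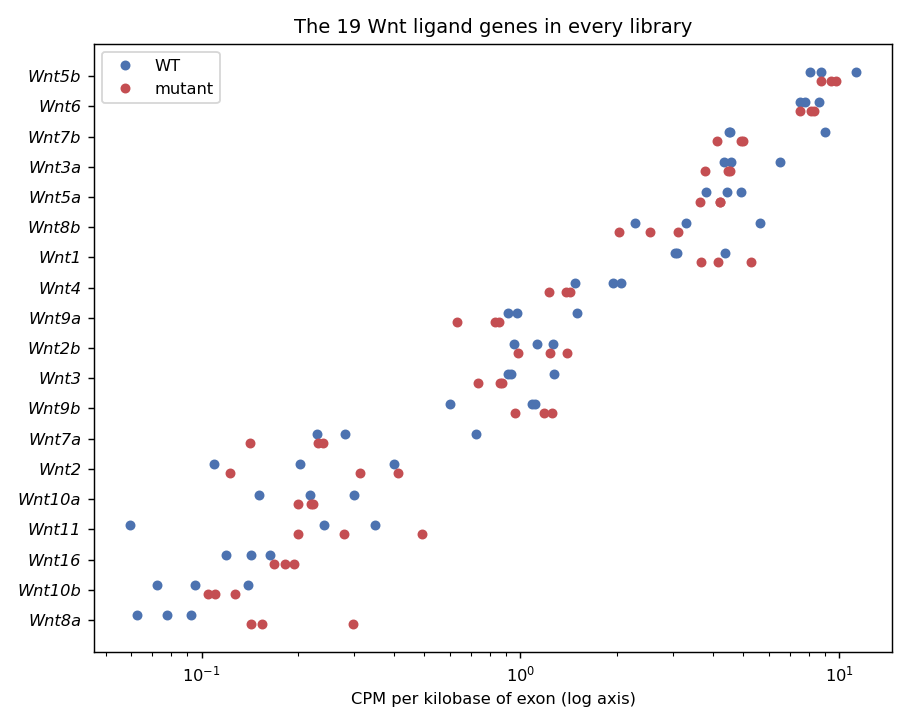
Level of the 19 Wnt ligand genes (rows) in CPM per kilobase of exon (horizontal log axis) in each WT library (blue) and each mutant library (red). *Wnt5b* and *Wnt6* are the highest, and *Wnt1* lies between *Wnt8b* and *Wnt4* in the order by WT level. The WT points that stand far to the right for *Wnt7b*, *Wnt8b* and *Wnt7a* are WT replicate 1.

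The other ligand genes were spread widely around 0. Of the 19 ligand genes, 8 estimates were above 0 and 11 below, and none passed the adjusted test. The median log2 fold change was -0.008, and -0.031 without WT replicate 1. The estimate farthest below 0 was that of *Wnt7a*, a ligand of the dorsal forebrain, at 2.31, 0.732 and 0.892 CPM in WT and 0.450, 0.763 and 0.737 CPM in mutants. Its log2 fold change was -0.95 (edgeR adjusted *P* = 0.635) and -0.28 without WT replicate 1. *Wnt9a*, a ligand known from joints and the skeleton, was at 5.00, 3.05 and 3.24 CPM in WT and 2.11, 2.78 and 2.84 CPM in mutants, which gave a log2 fold change of -0.53 (unadjusted *P* = 0.0351) that was -0.28 (unadjusted *P* = 0.126) without WT replicate 1. *Wnt8a*, a ligand of the early posterior embryo, was at 0.110, 0.136 and 0.162 CPM in WT and 0.521, 0.250 and 0.271 CPM in mutants. All mutant libraries were above all WT libraries (log2 fold change 1.27, SE 0.42, unadjusted *P* = 0.0145, edgeR adjusted *P* = 0.461), on counts as low as 4 reads in WT replicate 1.

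Among 16 receptor genes none passed the adjusted test, and the median log2 fold change was -0.005 (-0.0335 without WT replicate 1). The co-receptor genes gave estimates of opposite sign. *Lrp5* was at 65.3, 67.1 and 62.9 CPM in WT and 70.8, 68.8 and 73.7 CPM in mutants, which gave a log2 fold change of 0.13 (unadjusted *P* = 0.0258, edgeR adjusted *P* = 0.513). *Lrp6* was at 179.9, 172.3 and 188.1 CPM in WT and 158.1, 164.3 and 172.8 CPM in mutants, which gave a log2 fold change of -0.13 (unadjusted *P* = 0.0301, edgeR adjusted *P* = 0.530). The groups were apart for *Lrp5* and just overlapped for *Lrp6*. Of the Frizzled genes, *Fzd3* had a log2 fold change of -0.16 (unadjusted *P* = 0.0494), with an unadjusted *P* of 0.145 without WT replicate 1. *Fzd10* had the lowest estimate at -0.31 (-0.12 without WT replicate 1) and *Fzd5* the highest at 0.13 (0.19 with an unadjusted *P* of 0.00676 without it).

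**Figure D5:**
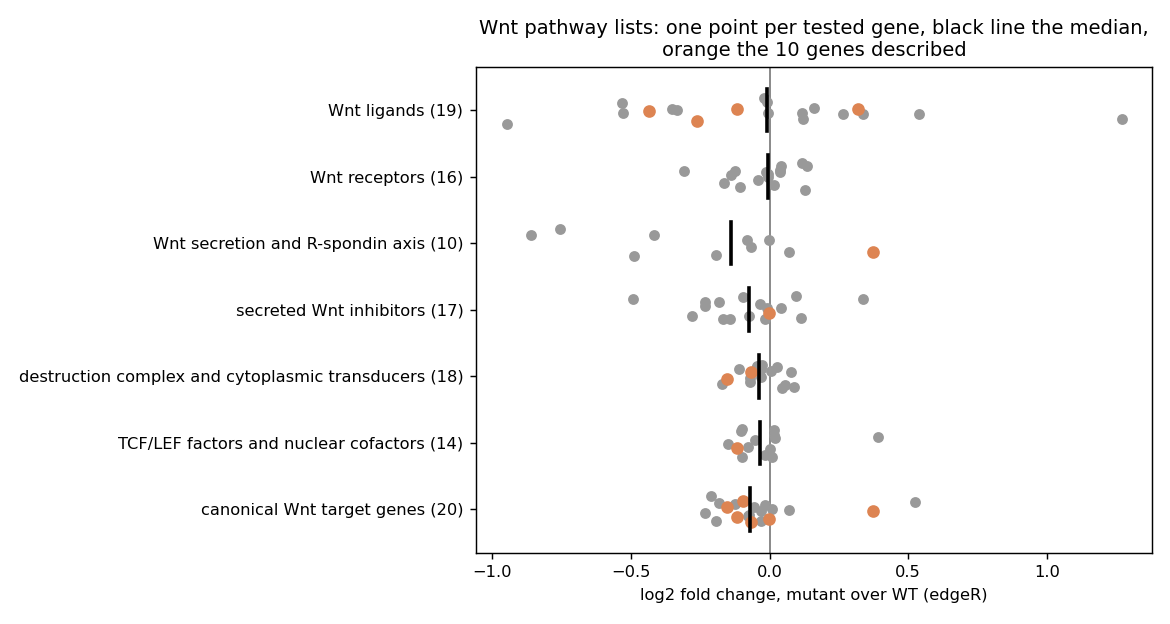
Estimated log2 fold change of mutant over WT (horizontal axis) for each tested gene of 7 Wnt pathway lists (rows, with the number of genes tested), the list median as a black bar and the 10 members in orange. The medians, with WT replicate 1 included, lie between -0.137 and -0.005. The points spread most among ligands and the secretion and R-spondin genes, and the point at the far right is *Wnt8a*.

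Genes of Wnt secretion and of the R-spondin axis, in which R-spondins bind Lgr receptors and restrain the ubiquitin ligases Rnf43 and Znrf3, had 2 estimates above 0 and 8 below among 10 tested, with a median of -0.137. *Rspo3* was at 7.66, 2.61 and 4.41 CPM in WT and 2.56, 2.72 and 2.69 CPM in mutants. Its log2 fold change of -0.86 (SE 0.37, edgeR adjusted *P* = 0.602) was -0.38 without WT replicate 1, and WT replicate 2 was within the range of the mutants. Secreted inhibitors had 4 estimates above 0 and 13 below among 17 tested (median -0.074), and without WT replicate 1, which was the highest library for 8 of them, 9 above and 8 below (median 0.0006). They ran from *Shisa3* at -0.49 (0.09 without that library) to *Sfrp4* at 0.34 (0.89 without it), both at 1.13 CPM or less in every library.

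The 18 genes of the destruction complex and the cytoplasmic transducers lay between *Gsk3b* at -0.17 and *Ctnnbip1*, an inhibitor of β-catenin, at 0.09. Their median was -0.037, with 12 estimates below 0. Without WT replicate 1 it was 0.018, with 8 below 0. *Gsk3b*, which encodes a kinase that marks β-catenin for destruction, was at 108.9, 92.6 and 106.9 CPM in WT and 88.8, 87.7 and 97.2 CPM in mutants (unadjusted *P* = 0.0359, edgeR adjusted *P* = 0.550), with an unadjusted *P* of 0.111 without WT replicate 1. Of 14 genes for TCF/LEF factors and their cofactors, *Tle2*, which encodes a Groucho corepressor, had the largest estimate. It was at 2.58, 3.00 and 2.92 CPM in WT and 3.84, 3.75 and 3.60 CPM in mutants, with the groups apart and a log2 fold change of 0.39 (SE 0.12, unadjusted *P* = 0.0107, edgeR adjusted *P* = 0.437). *Tle1*, of the same family, was at 98.6, 97.8 and 98.7 CPM in WT and 91.2, 92.3 and 92.2 CPM in mutants, also apart, at -0.10 (SE 0.036, unadjusted *P* = 0.0251, edgeR adjusted *P* = 0.508). *Pygo1* had the lowest estimate of this list, at -0.15. The list had 8 estimates below 0, and 4 without WT replicate 1.

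The wider list of canonical targets held 23 genes, of which 20 were tested and none had an unadjusted *P* under 0.05 in edgeR. In DESeq2, *T* (unadjusted *P* = 0.0357, adjusted *P* = 0.556) and *Apcdd1* (unadjusted *P* = 0.0374, adjusted *P* = 0.568) did. *Cdx2*, *Cdx4* and *Fgf20* did not pass the filter. The estimates ran from *Apcdd1*, which encodes a membrane inhibitor of the pathway, at -0.23 (-0.06 without WT replicate 1) to *T*, the Brachyury gene of the primitive streak and notochord, at 0.52 (0.28 without it). *T* was at 1.73, 3.64 and 3.00 CPM in WT and 4.14, 4.57 and 3.47 CPM in mutants, with 1 WT library inside the mutant range (edgeR adjusted *P* = 0.623). Of the 20 genes, 16 had an estimate below 0 (median -0.070). WT replicate 1 was the highest library for 12 of them, and without it 9 of 20 were below 0, with a median of 0.004. For the 10 members the count below 0 went from 8 to 6 without this library, and for the 92 tested genes of the pathway other than the members from 60 to 46. Across the 102 tested pathway genes, 3 had an unadjusted *P* under 0.05 and a higher level in mutants, 6 a lower level, and none was called by edgeR or DESeq2 after adjustment, where 4.34% and 4.09% of all tested genes were higher and lower at this unadjusted *P*. Of these 9 genes, 6 kept an unadjusted *P* under 0.05 without WT replicate 1 and none with Y-linked expression in the model. That model left *Gsk3b* at -0.04, *Fzd3* at -0.03 and *Lrp6* at -0.04. The estimates of the others were -0.24 for *Wnt4*, 1.35 for *Wnt8a*, -0.54 for *Wnt9a*, 0.36 for *Tle2*, 0.13 for *Lrp5* and -0.09 for *Tle1*. Outside these 9, 1 pathway gene was higher and 1 lower at this unadjusted *P* in that model. Over all tested genes it left 280 higher and 236 lower, against 677 and 637 without the covariate.

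Markers of the regions that express these genes were measured alongside. The summed level of 10 midbrain-hindbrain genes, among them *En1*, *En2*, *Fgf8* and *Pax2*, was 283.3, 217.8 and 233.3 CPM in WT and 249.9, 210.7 and 215.0 CPM in mutants. In each group replicate 1 had the highest sum, as it had the highest *Wnt1* and *Axin2*. The sum of 15 dorsal neural tube and neural crest genes was 423.7 to 461.2 CPM in WT and 413.3 to 451.8 CPM in mutants, and none of the 25 genes of these lists had an unadjusted *P* under 0.05. The 6 pan-neural genes *Sox1*, *Sox2*, *Sox3*, *Nes*, *Cdh2* and *Pax6* summed to 839.6, 713.4 and 748.4 CPM in WT and to 696.2, 704.3 and 703.7 CPM in mutants. The sums did not overlap, but the groups overlapped for each of the 6 genes taken alone. All 6 estimates were below 0 (median -0.114, none with an unadjusted *P* under 0.05), and 4 of 6 without WT replicate 1 (median -0.040). Markers of the tail bud, where *Wnt3a*, *T* and the *Cdx* genes are strongly expressed, were low: the 12 genes summed to 5.44 to 7.29 CPM in WT and 6.59 to 7.91 CPM in mutants, with *Msgn1* at 0 in 5 of the 6 libraries. The part of these regions in the levels of the members was not tested.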

How the data were processed

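Heads of E9.0 embryos were profiled by RNAseq in 3 WT and 3 mutant libraries from stranded, ribosomal RNA-depleted total RNA with paired reads. Reads were trimmed by the authors, aligned with STAR against mm10 and assigned to genes. The paper names HTSeq for the counting, and the submitters' processing notes list featureCounts. The deposited values are raw counts per gene symbol, as whole numbers without normalization, and all 6 columns were used.

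The test was that of edgeR (4.0.16, under R 4.3.3), with filterByExpr by genotype, TMM scaling and the robust quasi-likelihood test of mutant against WT, two-sided, without covariates. Benjamini-Hochberg adjustment ran over all 15584 genes tested, at a threshold of 0.05. Intervals are at 95%, on the log2 scale or converted to a percent change. Single members were also tested with an exact permutation of the libraries. DESeq2 (version 1.42.0), other scalings and filters, a replicate block, a Y-linked covariate and each library left out in turn were alternatives. Pairs of libraries of 1 group differed by a chi-square of 13.0 to 23.7 per degree of freedom, so none was a copy of another in its group. WT libraries were not compared with mutant libraries in this way. For genes with many reads, precision rested more on the spread between pools (common biological coefficient of variation 0.0871) than on depth. For genes with few reads, such as *Rnf43* and *Wnt8a*, depth limited it too. Coordinates and exon lengths came from Gencode M21 (mm10), figures from matplotlib (version 3.10.9). The edgeR and DESeq2 steps were tested on simulated counts.

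The 10 members and the pathway and marker lists were chosen with earlier results of these data known. All members are named, and from each pathway list the genes with the highest and lowest estimate and those with an unadjusted *P* under 0.05. *Rspo3*, *Afp*, *Msgn1* and the other marker genes are named to describe their lists.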

Additional observations from a re-analysis of the deposited data

How the results depend on the processing

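The count of members called was 0 under every alternative. Over all genes, edgeR called 1, DESeq2 84, edgeR without a filter 11, with the Y-linked covariate 0, and with 1 library left out 0 to 6, the 6 without WT replicate 1 and 5 without mutant replicate 1. Members with an unadjusted *P* under 0.05 numbered 1, and 2 with library sizes only, 2 with at least 10 counts in every library, 0 with the Y-linked covariate and 0 to 3 with 1 library left out. Over all tested genes, 677 were higher and 637 lower at this *P* in the main fit. The counts were 814 and 500 with library sizes only, 647 and 599 with at least 10 counts, and 280 and 236 with the Y-linked covariate. Without mutant replicate 2, where 0 members had it, they were 421 and 364. Without WT replicate 2, where 3 members had it, they were 801 and 969. The log2 fold change of *Dkk1*, -0.0003, was 0.011 with library sizes only, 0.0023 with at least 10 counts in every library and 0.0080 with the replicate block. It was -0.15 with the Y-linked covariate and -0.10 to 0.10 with 1 library left out (0.0006 without WT replicate 1). Those of *Axin2* (-0.16 to 0.0085, the highest without WT replicate 1) and *Sp5* (-0.17 to 0.011, the highest without mutant replicate 2) also crossed 0, and the other 7 members kept their sign. Canonical targets below 0 numbered 9 to 16 of 20, with the lowest count without WT replicate 1. Libraries of the same number correlated at 0.140, 0.001 and 0.321 in their deviations from the group means, and those of unlike number at -0.226 to 0.099. These numbers are those of the sample titles. The count columns are labelled as a continuous series, in which WT and mutant libraries share no number. The labels thus state no pairing, and with so few libraries these values do not settle whether the numbers pair the samples. With the title number as a block, a pairing that the labels do not state, 1 gene was called. In that fit 3 members had an unadjusted *P* under 0.05, *Wnt1* (0.00931), *Wnt4* (0.00507) and *Nkd1* (0.0396). Over all tested genes, 684 were higher and 645 lower at this unadjusted *P* with the block. The cause of these differences was not tested. With 3 pools a group, the intervals of *Wnt1* and *Rnf43* take in 0 and reach levels 67.0% and 68.0% higher.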
